A study of Mus musculus with 4 samples.

Results

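Cell cycle genes were followed as a set of 42 members, out of 32285 genes counted in the series. The members were listed by gene symbol, with earlier results of these data known. They were 22 genes of G2 phase and mitosis, 18 genes of the G1/S transition and DNA replication, and 2 broadly expressed genes. The latter, Stmn1 and Hmgb2, were kept apart from both sums. All 42 were found in each of the 4 libraries. RNA of single cells was counted by a 3-prime droplet method in cells sorted from the bone marrow of femurs of Rag2-/-gammac-/- C57BL/6 mice, which lack B, T and NK lymphocytes. The 4 groups held 1 library each: Ctrl from mice that were left ungrafted, Sham_D40 from mice injected with PBS, and Graft_D19 and Graft_D40 from mice whose femur had received DOHH2, a human follicular lymphoma cell line, taken at days 19 and 40. Per the labels' protocols, cells were depleted of Cd45 and Ter119 positive cells and stroma (Cd51+ Cd200+ without Cd31) and endothelium (Cd31+ Sca1+) were then sorted, as were lymphoma cells by human CD20. Sham_D40 and Ctrl carry the same genotype as the grafted mice, and the ages of the mice and the number pooled in a library are not given in the sources used here.

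With 1 library per group no difference between groups was tested. Every interval below is a 95% interval that covers counting error only, and animal, day and library cannot be told apart from the group. Ctrl stood apart in depth, with 18533482 UMIs (unique molecular identifiers, 1 per counted RNA molecule) against 51744386 to 72204599 in the other libraries. Any pair of libraries shared 11 to 15 cell barcodes.

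A dividing cell copies its DNA in S phase and separates the copies in mitosis. Genes for the first step, such as those for the MCM helicase and for nucleotide synthesis, are switched on together by E2F factors, whereas genes for the second, such as the cyclin B genes and those for the mitotic kinases and spindle proteins, are repressed in resting cells and activated late in the cycle through the MuvB complexes with B-Myb and FOXM1. Most adult marrow stroma and endothelium rests outside the cycle, and chondrocytes of the growth plate pass through a proliferative stage before they enlarge.

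The promoters of the members carried different letters in both lists. RefSeq promoter windows (build GRCm38.p6, from 250 bases before to 50 after the annotated start) were found for 35 of 42 members, 19 mitotic and 15 S-phase genes among them. The letters of the cell cycle homology region (TTTGAA or TTCGAA, either strand) were in 15 of 19 mitotic windows (78.95%) and 2 of 15 S-phase windows (13.33%), against 21.66% of all 27025 windows in the table. The letters CCAAT of the NF-Y box, on either strand, were in 17 of 19 mitotic and 9 of 15 S-phase windows, against 41.06% of all. The letters TTTGGCGC or TTTCCCGC, 2 forms of the E2F site, were in 7 of 15 S-phase windows (46.67%) and 0 of 19 mitotic windows, against 1.798% of all. A match is a description of the letters and not of a bound site. The 140 bases before the start are printed for 4 mitotic genes described below, Ube2c and Mki67 among those with large ratios. They are also printed for Mcm6, an S-phase gene with CCAAT and E2F letters but without those of the cell cycle homology region. Capitals mark the searched letters on either strand, so that CCAAT also appears as ATTGG and TTTGAA as TTCAAA.
Cdk1, chr10:69352913-69353052, minus strand: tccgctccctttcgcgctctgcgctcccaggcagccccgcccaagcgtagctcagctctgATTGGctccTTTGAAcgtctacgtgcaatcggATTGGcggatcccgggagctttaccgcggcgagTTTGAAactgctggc
Cdc20, chr4:118437344-118437483, minus strand: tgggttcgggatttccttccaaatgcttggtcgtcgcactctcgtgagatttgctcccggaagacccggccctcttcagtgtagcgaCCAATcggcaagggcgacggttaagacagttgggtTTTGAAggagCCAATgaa
Ube2c, chr2:164769789-164769928, plus strand: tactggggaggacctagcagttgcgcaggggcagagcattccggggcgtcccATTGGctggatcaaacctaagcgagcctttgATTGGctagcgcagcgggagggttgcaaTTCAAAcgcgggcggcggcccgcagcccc
Mki67, chr7:135716380-135716519, minus strand: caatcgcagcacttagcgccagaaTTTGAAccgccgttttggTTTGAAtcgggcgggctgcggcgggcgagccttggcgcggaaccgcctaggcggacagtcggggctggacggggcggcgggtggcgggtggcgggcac
Mcm6, chr1:128359706-128359845, minus strand: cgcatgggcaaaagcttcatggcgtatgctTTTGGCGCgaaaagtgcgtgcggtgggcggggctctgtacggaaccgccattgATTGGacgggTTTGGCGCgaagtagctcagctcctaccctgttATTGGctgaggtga

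Cells were assigned to classes by marker genes, without cells under 0.5% mitochondrial UMIs and without called doublets. The chondrocyte class (Col2a1, Acan, Col9a1 and others) held 254, 410, 755 and 994 cells; such series of values run from Ctrl to Sham_D40, then Graft_D19, then Graft_D40, throughout. Other stromal cells (Cxcl12, Lepr, Col1a1 and others) numbered 2142, 2705, 2446 and 2125, and endothelial cells (Cdh5, Pecam1, Emcn and others) 1500, 1258, 1335 and 1278. Both labelled cell types were thus present in each library. Median UMIs per chondrocyte were 1548.5 in Ctrl against 22499, 25425 and 24965 in the others, so that chondrocyte values in Ctrl rest on few molecules. A gene's level is given in CPM, its UMIs as a part of all UMIs of the class in a library, which is not scaled by gene length.

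The summed level of the 22 mitotic genes moved in a different way in each class. In chondrocytes it was 610.5, 552, 1011 and 374 CPM, highest in Graft_D19. In other stromal cells it was 87.1, 46.2, 75.8 and 452 CPM, and Graft_D40 lay above the other 3 libraries. In endothelial cells it was 46.6, 155, 399.9 and 320.3 CPM, and both grafted libraries lay above both ungrafted ones. The 18 S-phase genes spanned a narrower range. Their sum was 329, 294, 429 and 305 CPM in chondrocytes, 166, 167, 157 and 270.0 CPM in other stromal cells, and 201, 273, 369 and 354 CPM in endothelial cells.

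**Figure D1:**
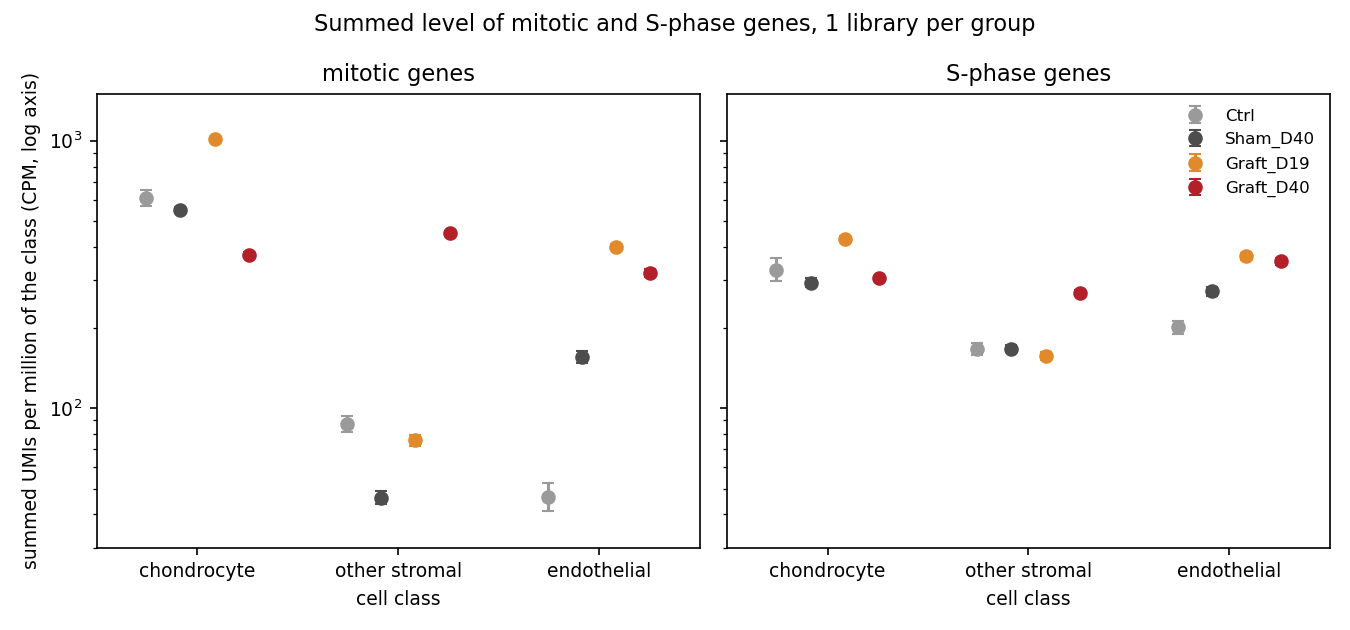
Summed level (CPM, log axis) of the 22 mitotic genes (left) and 18 S-phase genes (right) in each cell class, with 1 point per library and 95% Poisson intervals that cover counting error only. The Graft_D40 point of other stromal cells is at 452 CPM for mitotic genes, and the other 3 libraries are between 46.2 and 87.1.

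Chondrocytes held the highest level of most mitotic genes. Of 22, 6 were highest in chondrocytes in all 4 libraries (Mki67, Top2a, Cdk1, Aurkb, Kif11 and Kif23), and 15 were highest there in 3 libraries and in other stromal cells in Graft_D40. S-phase genes were divided among the classes: Ccne1, Ccne2, Rrm2 and Tk1 were highest in chondrocytes in all 4 libraries, and Mcm3, an MCM helicase subunit, and Tyms, thymidylate synthase, were highest in endothelial cells in all 4. Mcm4, another subunit of the helicase, was highest in other stromal cells in 3 of 4 libraries. Stmn1, a microtubule regulator, and Hmgb2, a chromatin protein, were highest in chondrocytes in all 4. Per member the library with the highest level was Graft_D40 for 22 of 22 mitotic genes in other stromal cells, Graft_D19 for 21 of 22 in chondrocytes, and Graft_D19 for 20 of 22 in endothelial cells.

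**Figure D2:**
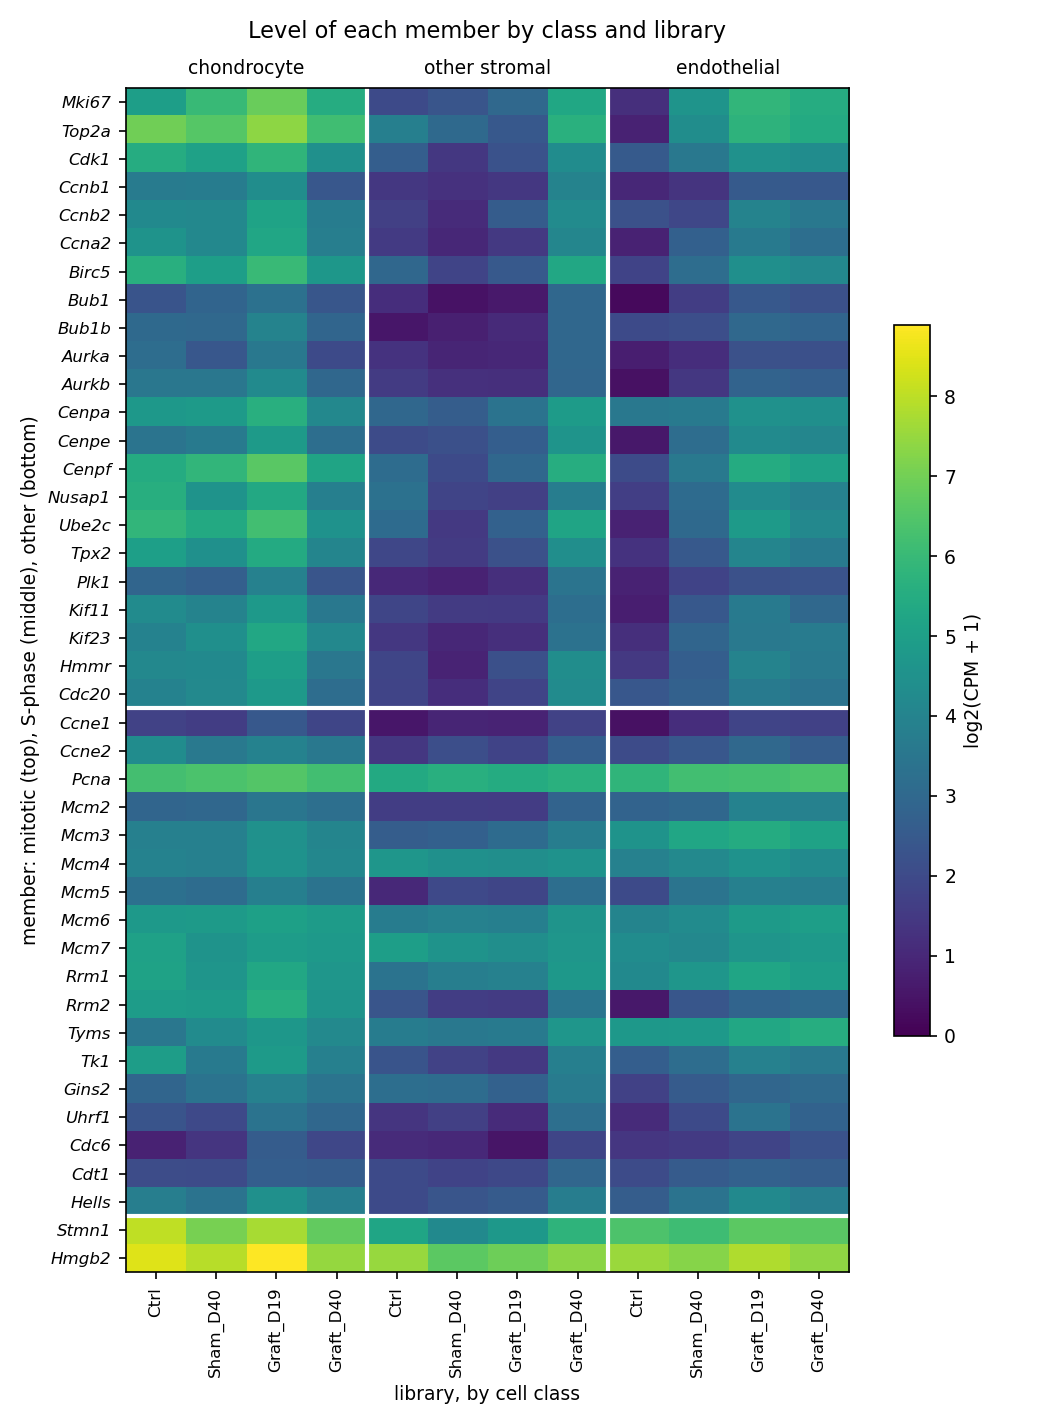
Level of each of the 42 members as log2(CPM + 1), with members in rows and the 4 libraries of each class in columns. In other stromal cells the Graft_D40 column is the brightest for all 22 mitotic genes, and Pcna, Mcm4 and Mcm7 keep a similar shade in the 4 columns.

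In other stromal cells the mitotic sum was 9.79-fold higher in Graft_D40 than in Sham_D40 (interval 9.24 to 10.4). A gene was called higher or lower when its mean over the compared libraries was at least 5 CPM, the ratio was at least 1.5-fold and its interval excluded 1. On this rule 18 of the 18 mitotic genes at that level were called higher, against 6.91% of all 10724 genes called higher and 8.42% called lower. Their median log2 ratio was 2.86, against -0.08 for all genes at that level. The other 4 mitotic genes, Bub1, Bub1b, Aurka and Aurkb, were below 5 CPM in the mean and all 22 ratios lay above 1. The size of the ratio depended on how cells were weighted: as a log2 ratio it was 3.29 over pooled UMIs and 1.69 with each cell weighted alike, and against Ctrl it was 2.38.

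The mitotic genes with the largest ratios in other stromal cells served different steps of mitosis. Ube2c, the ubiquitin-conjugating enzyme of the anaphase-promoting complex, was at 7.59, 1.81, 5.72 and 35.8 CPM, a 19.8-fold ratio of Graft_D40 to Sham_D40 (14.9 to 26.9). Cenpf, a kinetochore protein, was at 7.82, 3.0, 6.76 and 45.1 CPM, 15.05-fold higher (12.04 to 19.03). Birc5, which encodes survivin, a subunit of the chromosomal passenger complex, was at 6.90, 2.53, 4.64 and 38.9 CPM, 15.4-fold higher (12.1 to 19.9). For each of the 3, Graft_D40 lay far above the other libraries, and Sham_D40 was the lowest. Mki67, the gene of the Ki-67 proliferation antigen, was at 2.99, 4.08, 6.93 and 38.4 CPM, and Top2a, the topoisomerase that untangles sister chromatids, at 13.3, 7.26, 4.51 and 49.0 CPM. Sham_D40 over Ctrl gave a mitotic ratio of 0.530 in these cells, that is, 1.89-fold lower (1.72 to 2.06). Between these ungrafted libraries 0 of 4 mitotic genes at 5 CPM or more were called higher and 3 lower, against 25.5% and 10.4% of all genes.

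S-phase genes differed by less in the same comparison. Their sum was 1.62-fold higher in Graft_D40 than in Sham_D40 (1.56 to 1.68), and 10 of 13 genes at 5 CPM or more were called higher, against 6.91% of all genes: Mcm3, Mcm5, Mcm6, Rrm1, Rrm2, Tyms, Tk1, Gins2, Uhrf1 and Hells. Pcna, the sliding clamp of DNA polymerase, was at 41.3, 48.3, 43.2 and 48.9 CPM, a ratio of 1.01 (0.937 to 1.09). Mcm4 and Mcm7 gave 1.04 (0.922 to 1.16) and 1.10 (0.984 to 1.23), so these 3 genes lay within 1.5-fold. Stmn1 and Hmgb2 were both called higher, at 17.6 against 54.1 CPM and 98.7 against 162 CPM in Sham_D40 and Graft_D40.

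At day 19 other stromal cells showed no such increase. The mitotic sum was 1.15-fold lower in Graft_D19 than in Ctrl (1.05 to 1.25); on the log2 scale this is -0.20, whereas against Sham_D40 it was 0.71 and without the 1% of cells with most mitotic UMIs 0.42. Only 6 mitotic genes reached 5 CPM; 0 were called higher and 2 lower, against 22.7% and 10.0% of all genes. Those 2 were Nusap1, a spindle protein, at 9.08 CPM in Ctrl and 2.21 in Graft_D19, and Top2a, at 13.3 and 4.51. Of 8 S-phase genes at that level only Mcm7 was called, at 30.9 CPM in Ctrl and 20.1 in Graft_D19. The most positive ratios, none of them called, were Cenpa at 1.40, Mcm3 at 1.47 and Rrm1 at 1.5. The S-phase sum gave 0.942 (0.886 to 1.002), and its interval included 1.

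Endothelial cells had higher mitotic sums in both grafted libraries. Graft_D19 was 8.58-fold above Ctrl (7.61 to 9.71) and Graft_D40 2.07-fold above Sham_D40 (1.95 to 2.20). Sham_D40 was itself 3.33-fold above Ctrl (2.93 to 3.79), so the library chosen for comparison moved these values: on the log2 scale Graft_D19 was 3.101 above Ctrl and 1.37 above Sham_D40, and Graft_D40 1.05 above Sham_D40 and 2.78 above Ctrl. Of 17 mitotic genes at 5 CPM or more, 17 were called higher in Graft_D19, against 19.3% of all genes higher and 7.71% lower. In Graft_D40, 15 of 16 were called higher, against 7.74% and 7.19%. Between Sham_D40 and Ctrl 5 of 7 were called higher (Mki67, Top2a, Cdk1, Birc5 and Cenpf), against 20.5% of all genes higher and 8.91% lower.

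Individual mitotic genes started from a few UMIs in Ctrl endothelium. Top2a was at 0.823, 19.7, 52.8 and 42.1 CPM, from 5 UMIs in Ctrl and 653 in Graft_D19 (64.2-fold, 27.4 to 198). Mki67 was at 1.32, 23.2, 56.5 and 44.3 CPM (42.9-fold, 21.6 to 99.7), and Ube2c at 0.823, 7.24, 27.8 and 16.6 CPM (33.7-fold, 14.3 to 104). Each was lowest in Ctrl, intermediate in Sham_D40 and highest in Graft_D19. At day 40 the largest ratios to Sham_D40 were Ccnb2, a cyclin B gene, at 2.75 and 10.9 CPM (3.94-fold, 2.58 to 6.22), Cenpf at 11.1 and 33.4 CPM (3.0-fold, 2.42 to 3.75), and Tpx2, a spindle assembly factor, at 4.59 and 11.4 CPM (2.48-fold, 1.75 to 3.56). Cenpa, the centromeric histone, was at 10.7, 11.8, 21.4 and 20.7 CPM, a smaller range than for the other mitotic genes named.

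S-phase genes were also higher in grafted endothelium. The sum was 1.84-fold above Ctrl at day 19 (1.72 to 1.96) and 1.30-fold above Sham_D40 at day 40 (1.24 to 1.36), and Sham_D40 was 1.36-fold above Ctrl. At day 19, 11 of 13 were called higher, against 19.3% of all genes, and at day 40, 6 of 14 (Mcm2, Mcm6, Mcm7, Rrm2, Tyms and Gins2), against 7.74%. Mcm3 at day 40 gave 0.912 (0.789 to 1.05), Mcm4 1.04 (0.843 to 1.28) and Cdt1, the licensing factor, 1.05 (0.701 to 1.57). Tyms was at 25.5, 26.5, 39.6 and 45.4 CPM and Rrm1, the large subunit of ribonucleotide reductase, at 17.6, 24.5, 36.1 and 29.7 CPM. Stmn1 and Hmgb2 were not called on either day, each with 1.20-fold at day 19.

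**Figure D3:**
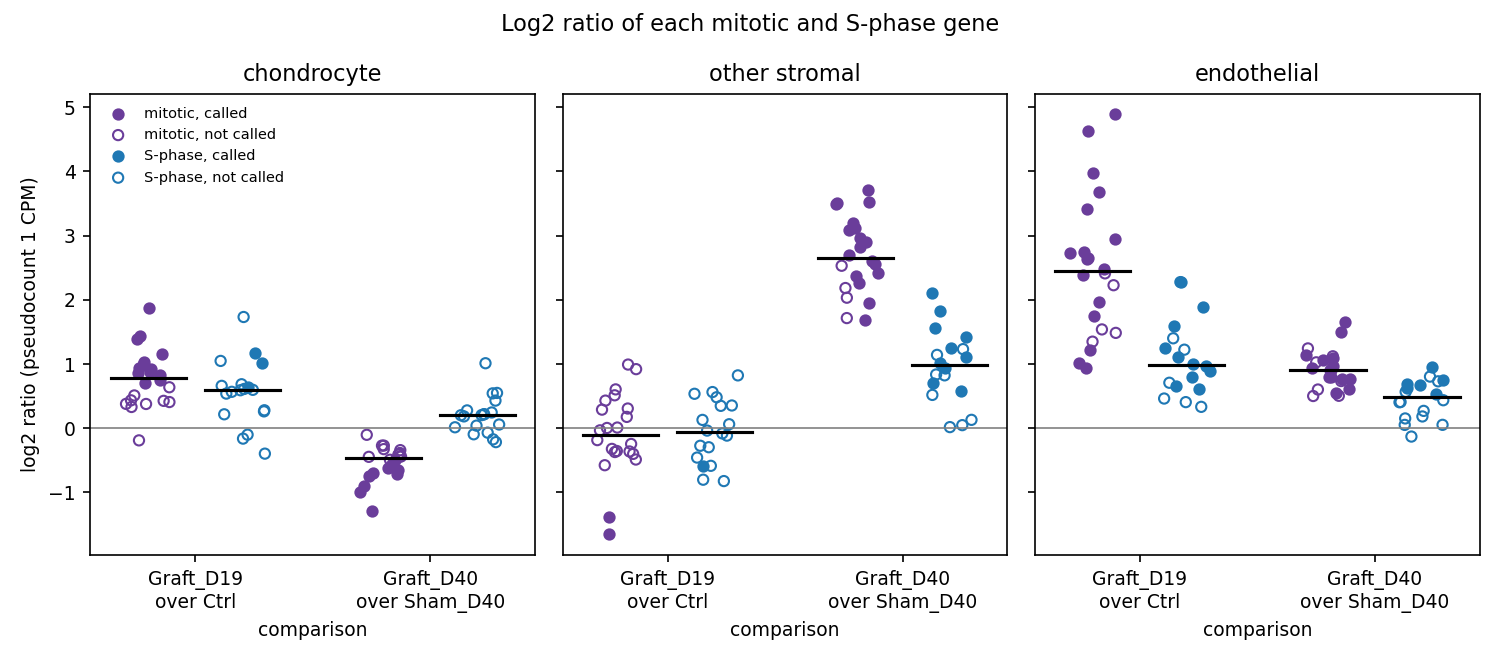
Log2 ratio of each mitotic (purple) and S-phase (blue) gene in both main comparisons, by cell class. Filled points were called, open points were not, and bars are medians over all genes of the list. All 22 mitotic ratios are above 0 in other stromal cells at day 40 and in endothelial cells on both days, and all 22 are below 0 in chondrocytes at day 40.

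In chondrocytes the mitotic sum was higher at day 19 and lower at day 40. Graft_D19 was 1.66-fold above Ctrl (1.54 to 1.78), and 12 of 22 mitotic genes were called higher and 0 lower, against 14.7% and 8.03% of all genes. Mki67 was at 30.5, 63.3, 114 and 44.8 CPM (3.75-fold, 2.72 to 5.31), Cenpe, a kinetochore motor, at 9.63, 11.7, 27.9 and 8.37 CPM (2.90-fold, 1.64 to 5.64), and Kif23, a motor of cytokinesis, at 14.4, 20.4, 39.6 and 16.7 CPM (2.74-fold, 1.72 to 4.65). These 3 were highest in Graft_D19. Nusap1 gave 0.875 (0.670 to 1.16), and among the other members Ccne2, cyclin E2, gave 0.748 (0.493 to 1.19) and Stmn1 0.811 (0.725 to 0.911), none of them called. Sham_D40 over Ctrl gave a mitotic ratio of 0.904 (0.837 to 0.976), with 1 of 22 called higher and 2 lower, against 22.0% and 8.99% of all genes.

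Graft_D40 was 1.47-fold below Sham_D40 in the mitotic sum of chondrocytes (1.43 to 1.53). There 0 of 20 mitotic genes were called higher and 10 lower, against 1.43% and 6.55% of all genes. Ccnb1, cyclin B1, was at 12.0, 12.2, 19.3 and 4.39 CPM, a ratio to Sham_D40 of 0.361 (0.275 to 0.473), and Cdc20, the activator of the anaphase-promoting complex, at 14.4, 17.1, 27.1 and 8.12 CPM (0.476, 0.385 to 0.589). Ube2c was at 56.2, 41.5, 73.3 and 21.9 CPM (0.528, 0.463 to 0.602). For these genes Graft_D40 was the lowest library. The sums rested on few cells: in Sham_D40, 10 chondrocytes held 87.4% of the mitotic UMIs of the class, against 57.3% in Graft_D40, and without the 10 cells with most mitotic UMIs in each library the log2 ratio turned from -0.56 to 1.17. A fixed number of cells is a larger part of the 410 chondrocytes of Sham_D40 than of the 994 of Graft_D40, which by construction moves the ratio up. Without the 1% of cells with most mitotic UMIs in each library, a setting added after the data were seen, it was -0.63. At day 19 the log2 ratio went from 0.73 to 3.51 without 10 cells and to 1.73 without 1%; there 10 cells held 91.1% of the mitotic UMIs in Ctrl and 36.7% in Graft_D19.

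The S-phase sum of chondrocytes was 1.30-fold higher in Graft_D19 than in Ctrl (1.18 to 1.44), with 3 of 15 called higher (Rrm2, Tyms and Gins2), a share near the 14.7% of all genes. Without the chondrocytes that held UMIs of 3 or more mitotic genes, described next, its log2 ratio turned from 0.38 to -0.10. Between Graft_D40 and Sham_D40 it gave 1.04 (0.994 to 1.08), and 0 of 14 were called in either direction. The largest ratios there were Hells, a chromatin remodeller of replicating DNA, at 1.38 (1.09 to 1.77), Mcm2 at 1.24 (0.937 to 1.67) and Mcm5 at 1.21 (0.928 to 1.59). Mcm6 was at 26.5, 27.5, 32.4 and 28.6 CPM, and Pcna at 74.6, 81.1, 89.7 and 71.8 CPM.

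UMIs of mitotic genes sat in few cells in each class. Cells with UMIs of 3 or more of the 22 genes are called mitotic-positive here. They were 14, 21, 110 and 68 chondrocytes, which is 5.51% (3.05 to 9.08), 5.12% (3.20 to 7.72), 14.6% (12.1 to 17.3) and 6.84% (5.35 to 8.59). Among other stromal cells they were 9, 19, 16 and 70, or 0.420% (0.192 to 0.796), 0.702% (0.423 to 1.09), 0.654% (0.374 to 1.06) and 3.29% (2.58 to 4.14). Among endothelial cells they were 5, 13, 53 and 44, or 0.333% (0.108 to 0.776), 1.03% (0.551 to 1.76), 3.97% (2.99 to 5.16) and 3.44% (2.51 to 4.59). In pericyte-gated cells, a small class low in these genes, 0 of 43, 0 of 48, 1 of 42 and 0 of 127 were positive, and the counts of 0, taken as up to 3 cells of the total, allow shares of up to 6.98%, 6.25% and 2.36%. Median UMIs of these pericytes without mitotic-positive cells were 2662, 9208, 7735 and 8873.

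Depth differed between cells, so the count was repeated with each cell thinned to 2000 UMIs. Cells that fell short were left out, which kept 104 of 254, 395 of 410, 642 of 755 and 909 of 994 chondrocytes. The shares became 6.73%, 3.29%, 8.72% and 3.52% in chondrocytes, 0.395%, 0.227%, 0.2998% and 1.81% in other stromal cells, and 0.194%, 0.497%, 2.11% and 1.87% in endothelial cells. The excess of Graft_D40 over Sham_D40 in other stromal cells remained outside the counting intervals (1.28 to 2.48 against 0.0834 to 0.494), as did that of both grafts in endothelial cells. In chondrocytes the interval of Ctrl (2.75 to 13.4), from 7 positive of 104 cells, overlapped that of Graft_D19 (6.66 to 11.2). Those of Sham_D40 and Graft_D40 overlapped as well. Neither difference thus lay clear of counting error at this depth, which does not show that the shares were alike.

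**Figure D4:**
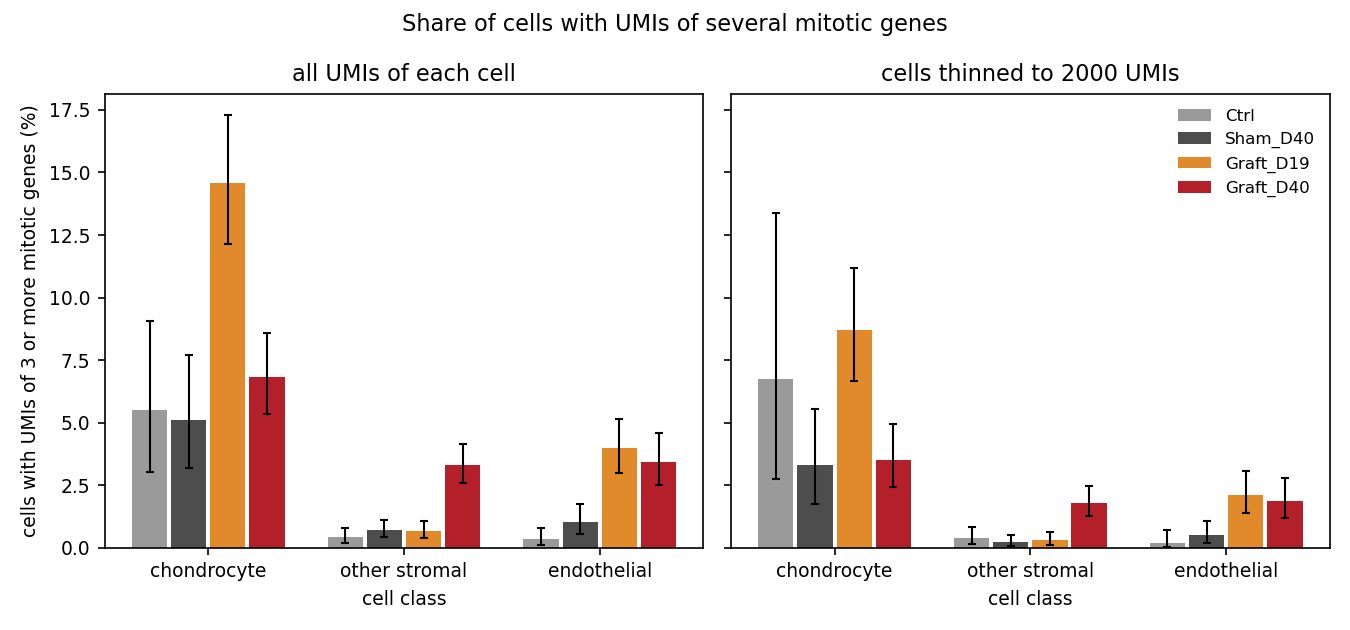
Share of cells with UMIs of 3 or more mitotic genes (percent), by class and library, from all UMIs (left) and after thinning each cell to 2000 UMIs (right). Bars are shares and lines 95% Clopper-Pearson intervals for counting error only. Other stromal cells of Graft_D40 are at 3.29% and 1.81%, above their other 3 libraries in both panels.

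Positive cells were chosen by UMIs of the mitotic genes, so the mitotic levels of both kinds of cell are a description that the choice in part fixes. The mitotic sum was 29.1, 19.2, 24.9 and 23.5 CPM in the remaining chondrocytes, 17.3, 20.9, 19.5 and 20.3 CPM in the remaining stromal cells, and 29.6, 32.1, 32.9 and 35.7 CPM in the remaining endothelial cells. The 70 positive stromal cells of Graft_D40 held 96.1% of the mitotic UMIs of the class and had UMIs of a median of 13.5 of the 22 genes. The 10 cells with most of them held 59.5%. Their S-phase level was 1022 CPM against 154 CPM in the remaining cells, 6.64-fold higher, although the S-phase genes took no part in choosing them. In the other combinations of class and library this ratio was between 3.38 and 12.1, except for the 5 positive endothelial cells of Ctrl, at 0.979. Without the positive cells, a setting added after the data were seen, the S-phase log2 ratio of Graft_D40 to Sham_D40 in other stromal cells went from 0.70 to -0.019, and that of Graft_D19 to Ctrl in endothelial cells from 0.88 to 0.43.

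The mitotic-positive stromal cells of Graft_D40 differed in marker levels from the remaining other stromal cells of that library. Cxcl12, the chemokine of niche stroma, was at 984 CPM against 11573, Lepr, the leptin receptor, at 78.3 against 1174, Adipoq at 24.7 against 602, and Bglap, which encodes osteocalcin of mature osteoblasts, at 50.5 against 9412. Col1a1, a collagen I chain, was at 7065 against 30367 CPM. These markers of niche and bone-forming stroma were lower in the positive cells, although 45.7% of them held a UMI of Bglap against 37.0% of the rest. Cxcl12, Lepr, Adipoq and Bglap were also lower in the positive cells of each other library. For Cxcl12 the values were 8311 against 27476 CPM in Ctrl, 10429 against 25379 in Sham_D40 and 982 against 19710 in Graft_D19. Col1a1 was higher in the positive cells of Graft_D19, at 34464 against 21535 CPM. Other markers of bone-forming cells, Ibsp, Alpl and Sp7, were higher in the positive cells of both Sham_D40 and Graft_D19. In Sham_D40 they were at 20750 against 7197, 555 against 181 and 114 against 61.4 CPM. In Graft_D19 they were at 13717 against 7936, 789 against 328 and 196 against 93.6 CPM. All of them were lower in the positive cells of Graft_D40, and in Ctrl Alpl was higher and Ibsp and Sp7 lower. Within Graft_D40, Col3a1, a collagen III chain, was at 2463 against 1779 CPM. Acta2, the smooth muscle actin of contractile cells, was at 1361 against 114.5 CPM, and 52 of 70 positive cells (74.3%) held a UMI of it against 13.2% of the rest; it is not among the class markers and was looked at after its values were seen. In Ctrl, Acta2 was at 116 CPM in the 9 positive cells, with a UMI in 1 of them, against 25.4 CPM in the rest; in Sham_D40 it had no UMI in 19 positive cells, against 7.52 CPM, and in Graft_D19 it was at 4.61 CPM in 16, against 10.6. These are sums over cells of 1 library and give no spread between animals.

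Markers of other cell types were counted in the same cells. Of the 70, 19 (27.1%) held a UMI of the 10 haematopoietic markers against 11.4% of the remaining cells, and 50 (71.4%) held 1 of the 12 endothelial markers against 40.4%, at median depths of 45655 and 8635 UMIs. Summed, the haematopoietic markers were at 12.3 CPM against 32.4 and the endothelial markers at 49.9 against 65.2. Cells with 4 or more haematopoietic markers, or past the endothelial gate, had been taken out of the class before, so the gate in part fixes these sums. Without all cells that held a haematopoietic UMI the mitotic log2 ratio of Graft_D40 to Sham_D40 in other stromal cells was 4.07, against 3.29 with them. Of the doublets called and removed, 0 of 77, 1 of 43, 4 of 89 and 5 of 53 were mitotic-positive.

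In the 44 mitotic-positive endothelial cells of Graft_D40 the 12 endothelial markers were at 9076 CPM against 12244 in the remaining cells. The class gate asks for UMIs of these markers, so that every cell of the class holds them by construction. The 16 other stromal markers were at 4744 CPM against 2424 as a sum, whereas their median share per cell was 0.0672% against 0.129%. Neutrophil markers had a UMI in 8 of 44 (18.2%) against 5.59%, at 31.7 CPM against 7.75, with median depths of 13823.5 and 7173.5 UMIs. In Graft_D19 the stromal markers were at 1902 CPM in the 53 positive cells against 1971, and the neutrophil markers at 81.7 against 43.3. Without all cells that held a haematopoietic UMI, the mitotic log2 ratio in endothelial cells was 0.87 at day 40 and 4.10 at day 19; the part of stromal and neutrophil RNA in it was not tested.

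Regulators of the cycle outside the members were read from a list of 40 genes: D cyclins, their kinases and inhibitors, E2F and Rb family genes, subunits and partners of MuvB, and antiproliferative genes. In other stromal cells of Graft_D40, 3 of the 32 at 5 CPM or more were called higher and 2 lower, shares near the 6.91% and 8.42% of all genes. Cdkn2a, which encodes the inhibitor p16Ink4a and Arf, was at 4.71, 3.25, 2.99 and 12.9 CPM (3.95-fold above Sham_D40, 3.13 to 5.04), and Ccnd1, cyclin D1, at 26.2, 38.8, 31.8 and 73.9 CPM (1.90-fold, 1.76 to 2.05). Cdkn1c, the inhibitor p57Kip2, was at 206, 151, 148 and 75.8 CPM (0.5003, 0.474 to 0.528) and Btg2, an antiproliferative gene, at 37.0, 119.9, 123 and 70.2 CPM (0.585, 0.553 to 0.620). Cdkn1c was likewise lowest in Graft_D40 in endothelial cells, at 336, 301, 349.6 and 167 CPM (0.554 of Sham_D40, 0.522 to 0.587), where 1 regulator of 33 was called higher and 3 lower (against 7.74% and 7.19% of all genes), Btg2 and Gas1 being the others lower. At day 19, 13 of 31 regulators were called higher in endothelial cells and 0 lower, against 19.3% and 7.71% of all genes; Ccnd1 was at 110.5, 165, 237 and 179 CPM, 2.14-fold above Ctrl (1.97 to 2.33).

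In other stromal cells at day 19, 9 of 29 regulators were called higher and 2 lower, against 22.7% and 10.0% of all genes. Cdkn1a, the inhibitor p21, was at 44.1, 131, 152 and 149.9 CPM, 3.45-fold above Ctrl (3.11 to 3.84), and Btg2 was 3.33-fold above it. Both were also higher in Sham_D40 than in Ctrl, so that Ctrl stood alone. In chondrocytes 10 of 34 were called higher and 1, Btg1, lower at day 19, against 14.7% and 8.03% of all genes. At day 40, 2 of 32 were higher and 3 lower, against 1.43% and 6.55%. Gas1, a growth arrest gene, was at 56.2, 555, 211 and 103 CPM there, and Ccnd2, cyclin D2, at 16.0, 91.1, 49.0 and 28.3 CPM. Both were highest in Sham_D40, above Ctrl by more than either graft was, and no order by graft can be read from them.

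Cells with under 0.5% mitochondrial UMIs, left out above, numbered 44, 26, 115 and 248. In both grafts they held many member UMIs: 971 and 1071 CPM of mitotic and 1017 and 1275 CPM of S-phase genes in Graft_D19 and Graft_D40. The high mitotic level was not particular to the grafts: it was 1290 CPM in Ctrl, from 107 UMIs, and 443 CPM in Sham_D40. The S-phase sums of Ctrl and Sham_D40 were 578 and 421 CPM. In Graft_D40 141 of the 248 (56.9%) were mitotic-positive, at a median of 18824 UMIs against 6897 in the rest. Their proportions between members were unlike those of the gated classes. Mcm7 had 521 and 1917 UMIs and Pcna 40 and 133, a ratio of 13.0 and 14.4, whereas it was between 0.230 and 0.749 in the 3 classes over the 4 libraries. In Graft_D40 Mki67 made up 0.724% of their mitotic UMIs, against 11.97%, 8.49% and 13.8% in chondrocytes, other stromal and endothelial cells, and Cenpa 0.0749%, against 4.44%, 6.34% and 6.47%.

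In Graft_D40, haematopoietic markers had a UMI in 226 of these 248 cells, and 162 of the 248 met no class gate while 65 met that for blood markers. The deposited counts were made on a mouse build, per the submitters' processing notes, and human lymphoma cells were sorted in the same protocol; their part in these cells was not tested. With these cells kept and assigned by the gate, none of the 12 mitotic and S-phase sums of the main comparisons moved by more than counting error. Of the 248 cells, however, only 1 met the chondrocyte, 10 the endothelial and 10 the other stromal gate, so the sums of Graft_D40 could hardly move.

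**Figure D5:**
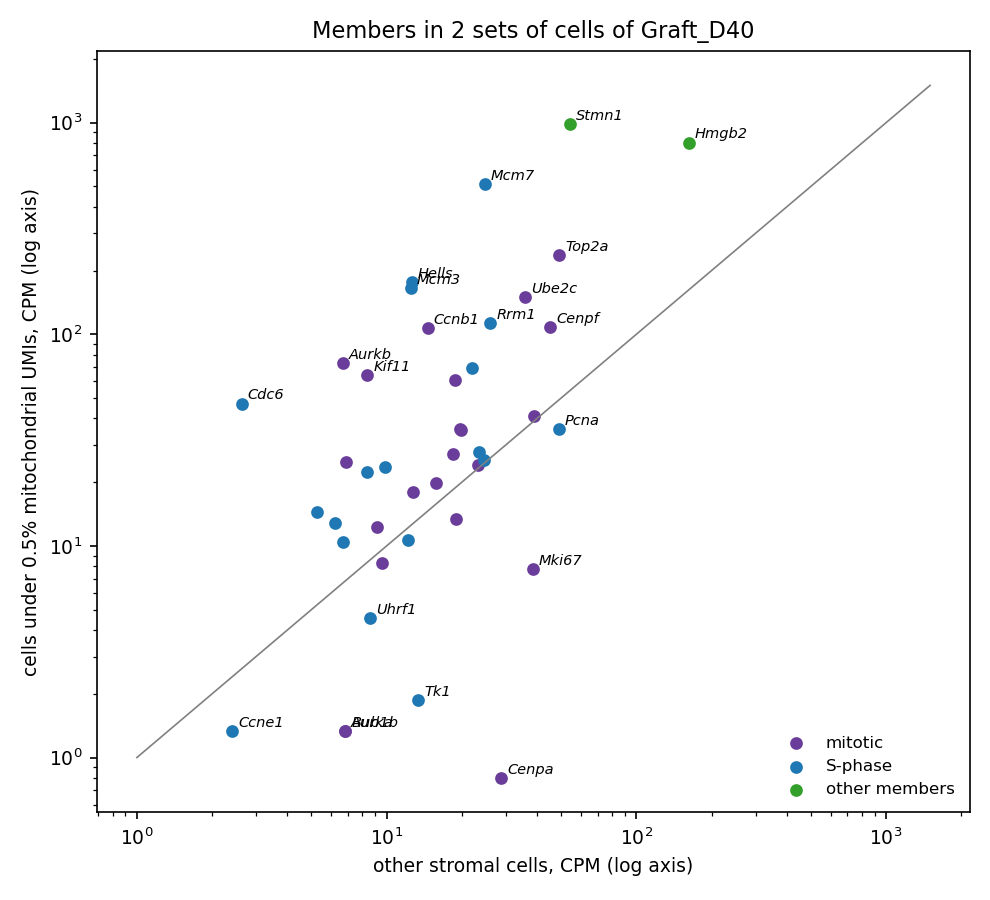
Level of each member in the 248 cells of Graft_D40 with under 0.5% mitochondrial UMIs (vertical, CPM, log axis) against the 2125 other stromal cells of the same library (horizontal, CPM, log axis), with the line of equal levels. Mcm7 lies far above the line, at 513 against 24.7 CPM, and Mki67 and Cenpa lie below it, at 7.75 against 38.4 and 0.802 against 28.7.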

How the data were processed

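Droplet 3-prime single-cell libraries (v3.1 chemistry) of 4 groups, 1 library each, were used. The matrices as deposited hold unnormalized UMI counts. Cell Ranger 5.0.0 is named as their writer per the file headers; the submitters' processing notes name version 3.1.0 and build mm10. Rows that are not gene expression were left out.

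A barcode was kept as a cell from 500 genes and 1000 UMIs on, with mitochondrial UMIs of 10% or less. Scrublet (scanpy 1.11.5, expected rate 6%) called 77, 43, 89 and 53 doublets (Ctrl, then Sham_D40, then Graft_D19, then Graft_D40), which were removed. Total UMIs were 18533482, 51744386, 63214301 and 72204599 in that order. Classes were gated in order on shares of UMIs and numbers of marker genes: blood (4 of 10 haematopoietic markers, or 1% erythroid or neutrophil UMIs, or 4 megakaryocyte markers), mixed, chondrocyte (1%, 4 of 12 markers), endothelial (0.3%, 3 of 12), pericyte (0.3%, 3 of 6) and other stromal (0.5%, 3 of 16). The gate was set on the distributions of marker UMIs. Between 1.59% and 3.31% of cells lay within 2-fold of the chondrocyte limit and 1.04% to 5.29% within 2-fold of the endothelial limit.

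UMIs were summed per class and library and divided by the class total (CPM), with exact Poisson intervals. Ratios carry exact conditional binomial intervals and shares Clopper-Pearson intervals. Log2 ratios of single genes used a pseudocount of 1 CPM. Genes named with values are the 4 members of each list and class with the highest mean CPM, the 3 largest ratios in each direction at 5 CPM or more in each comparison, and the called regulators at 10 CPM or more, up to 4 in each direction; not all are spelled out. Acta2 was chosen after its values were seen. The members and lists were chosen with earlier results of these data known. The calculation was tested on simulated counts drawn independently for each gene. Mitotic UMIs sat in few cells, so that simulation does not show how the intervals and calls behave for these genes. Work was done in Python 3.11.15 with scipy 1.17.1, pandas 2.3.3 and numpy 2.4.6.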

Additional observations from a re-analysis of the deposited data

Results flagged for a closer look

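Mitotic genes moved in opposite directions between classes. At day 40 the log2 ratio of the mitotic sum to Sham_D40 was 3.29 in other stromal and 1.05 in endothelial cells but -0.56 in chondrocytes. The chondrocyte value was -0.63 without the 1% of cells with most mitotic UMIs but 1.17 without 10 cells. The share of mitotic-positive chondrocytes gave a log2 ratio of 0.42, or 0.097 after thinning, and the counting intervals of both libraries overlapped. At day 19 the log2 ratio to Ctrl was 0.73 in chondrocytes and 3.101 in endothelial cells but -0.20 in other stromal cells. Within a class the direction also differed between days, from 0.73 at day 19 to -0.56 at day 40 in chondrocytes and from -0.20 to 3.29 in other stromal cells. The stromal -0.20 was 0.71 against Sham_D40, and 0.39 and 0.42 without the 10 cells or the 1% of cells with most mitotic UMIs, so that its direction depends on these choices. With 1 library per group these differences were not tested.

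A signal of the members also appeared in cells outside the comparisons, those with under 0.5% mitochondrial UMIs. Their S-phase sum was 1017 CPM in Graft_D19 and 1275 CPM in Graft_D40, against 578 in Ctrl and 421 in Sham_D40. Their mitotic sum was 1071 CPM in Graft_D40 against 443 in Sham_D40, whereas Ctrl was at 1290 CPM (1057 to 1558) from 107 UMIs.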

How the results depend on the processing

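The limits are those of 1 library per group, of the shallow Ctrl library and of the few cells that carry most mitotic UMIs. No paired analysis was possible because each group has 1 library. Keeping called doublets or the cells with under 0.5% mitochondrial UMIs moved none of the 12 summed ratios beyond counting error. In Graft_D40, however, few cells with under 0.5% mitochondrial UMIs met the gate of a compared class. A pseudocount of 5 CPM kept the sign of all 6 medians of measured members but made each smaller in size. The median log2 ratio went from 2.10 to 1.32 in other stromal cells at day 40 and from 1.67 to 1.17 in endothelial cells at day 19. The cause of the shifts below was not tested.

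All values are log2 ratios, to Sham_D40 at day 40 and to Ctrl at day 19 unless stated. Scaled by the median ratio of genes, mitotic sums were -0.49 (chondrocyte, day 40), 3.39 and -0.35 (other stromal, days 40 and 19) and 2.91 (endothelial, day 19), and S-phase sums 0.12, 0.79, -0.24 and 0.68 in the same order. With each cell weighted alike, mitotic sums were -0.40 and 0.57 in chondrocytes at days 40 and 19, 1.69 in other stromal cells at day 40, and 1.26 and 2.73 in endothelial cells. The S-phase sums were then 0.14 in chondrocytes at day 40, 0.31 and 0.018 in other stromal cells, the latter from -0.086, and 0.29 and 0.71 in endothelial cells.

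Without the 10 cells with most UMIs of the list in each library, mitotic sums changed sign in chondrocytes at day 40 (1.17) and in other stromal cells at day 19 (0.39). The other mitotic sums were 3.51 in chondrocytes at day 19, 3.13 in other stromal cells at day 40, and 1.80 and 2.40 in endothelial cells at days 40 and 19. S-phase sums were 0.37 and 1.14 in chondrocytes, 0.47 in other stromal cells at day 40 and 0.71 in endothelial cells at day 19. Without the 1% of cells with most UMIs of the list, chosen after the data were seen, mitotic sums were -0.63 and 1.73 in chondrocytes, 2.25 and 0.42 in other stromal cells, the latter with a changed sign, and 1.45 and 1.98 in endothelial cells. S-phase sums were 0.62 in chondrocytes at day 19, 0.26 in other stromal cells at day 40 and 0.67 in endothelial cells at day 19. With the other ungrafted library as comparator, mitotic sums were -0.71 and 0.87 in chondrocytes, 2.38 and 0.71 in other stromal cells, the latter with a changed sign, and 2.78 and 1.37 in endothelial cells. S-phase sums were -0.11, from 0.054 and so with a changed sign, and 0.54 in chondrocytes and 0.82 and 0.44 in endothelial cells.

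Without the cells that held UMIs of 3 or more mitotic genes, chosen after the data were seen, S-phase sums were -0.24 and -0.10 in chondrocytes, -0.019 in other stromal cells at day 40, and 0.27 and 0.43 in endothelial cells; those of chondrocytes on both days and of other stromal cells at day 40 changed sign. A stricter gate gave mitotic sums of 0.61 (chondrocyte, day 19), 2.99 and -0.36 (other stromal) and 1.19 (endothelial, day 40), and an S-phase sum of 0.50 in other stromal cells at day 40. Without cells with a haematopoietic UMI, mitotic sums were 4.07 and -0.98 in other stromal and 0.87 and 4.10 in endothelial cells, and the S-phase sum of endothelial cells at day 40 was 0.52. A total without mitochondrial, ribosomal protein and haemoglobin genes gave 0.76 for S-phase genes in other stromal cells at day 40, and a limit of 5% mitochondrial UMIs 0.95 for mitotic genes in endothelial cells at day 40.

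With no minimum level, 2 members in place of 0 were called higher in chondrocytes at day 40 and 5 in place of 0 in other stromal cells at day 19. At a minimum of 20 CPM, which leaves fewer genes, the members called lower were 4 in place of 10 in chondrocytes at day 40. In other stromal cells at day 19 they were 2 in place of 4. Called higher were then 9 in place of 15 in chondrocytes at day 19 and 6 in place of 30 in other stromal cells at day 40. In endothelial cells they were 6 in place of 21 at day 40 and 7 in place of 28 at day 19. The counts replaced are those called at 5 CPM. The number of members at 20 CPM or more and the share of all genes called at these other minimum levels are not given. A smaller count can therefore not be read as a smaller difference. The log2 ratio of the share of mitotic-positive cells was 0.37 after thinning in chondrocytes at day 19, against 1.40. In other stromal cells at day 40 it was 0.88 when 2 genes were asked for and 3.21 when 5 were, against 2.23 for 3.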
